A study of Mus musculus with 24 samples.

Results

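The transcripts of the mouse mitochondrial genome were followed across 24 RNA-seq libraries of CGR8 mouse embryonic stem cells (ESCs). The members are the rows whose symbol begins with mt-, which are 13 protein genes, 2 rRNA genes and 22 tRNA genes, together with the nuclear pseudogene Gm10222. They are 38 of the 54242 genes in the table. Values were the deposited log2(TPM + 1). TPM, the share of transcripts that a gene holds in a library, is corrected for transcript length. Levels may thus be set side by side between genes whose RNA the library kit recovers alike. A gene passed the test when limma, fitted to the 16447 genes whose mean over the libraries reached 0.5, gave a Benjamini-Hochberg adjusted p under 0.01.

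The cells were transfected with a pool of non-targeting siRNAs (si-CTL) or a pool against Rsl24d1 (si-Rsl24d1), which encodes a ribosome biogenesis factor. They were profiled as undifferentiated ESCs (day 0) or after 4 days with 10 nM retinoic acid (RA, day 4), without or with a rescue RSL24D1 protein induced by doxycycline. This gave 8 groups with 3 libraries each: at each day, si-CTL without rescue, si-Rsl24d1 without rescue, si-CTL with rescue and si-Rsl24d1 with rescue. All 8 groups come from CGR8 cells, and the study's methods give the rescue as an siRNA-resistant coding sequence inserted by piggyBac transposition behind a doxycycline-inducible promoter. In these libraries rescue therefore means at least the drug and the protein together, and their effects cannot be told apart. The labels give an empty vector to the groups without rescue. By the labels the inserted construct thus differs as well, and its effect cannot be told apart either. They also give both 48 h and 72 h as the time from transfection to collection at day 0. The culture medium at day 4 is given with LIF in one place and without it in another.

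Mitochondrial DNA is a small circular genome present in many copies per cell. Both of its strands are transcribed as long precursors by the nuclear-encoded RNA polymerase POLRMT, and the tRNAs that lie between the other genes are cut out to free the rRNAs and mRNAs. The 13 mRNAs encode subunits of complex I (mt-Nd1 to mt-Nd6 and mt-Nd4l), complex III (mt-Cytb), complex IV (mt-Co1 to mt-Co3) and ATP synthase (mt-Atp6 and mt-Atp8), and they are translated on mitochondrial ribosomes built around the rRNAs mt-Rnr1 and mt-Rnr2. All of these genes but mt-Nd6 and some tRNAs are read in one direction, and 2 mRNAs, mt-Nd4l with mt-Nd4 and mt-Atp8 with mt-Atp6, each carry a pair of overlapping reading frames. Stretches of mitochondrial DNA have also been copied into the nuclear chromosomes.

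Gm10222 is one of these nuclear copies, and its sequence decides how its values can be read. In gencode vM21 on GRCm38 it is an unprocessed pseudogene at chr1:24612407-24612700 on the minus strand, and it is a copy of mt-Nd4l at chrM:9877-10173 on the plus strand. Both transcript sequences are shown because 294 of 294 bases of Gm10222 are identical to mt-Nd4l, and the capitals mark the bases that only mt-Nd4l holds.
Gm10222: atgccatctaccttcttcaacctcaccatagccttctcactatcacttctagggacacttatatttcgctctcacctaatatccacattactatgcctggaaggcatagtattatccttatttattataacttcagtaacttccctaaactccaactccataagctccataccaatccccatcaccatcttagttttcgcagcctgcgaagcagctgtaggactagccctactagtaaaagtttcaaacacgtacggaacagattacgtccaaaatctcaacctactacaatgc
mt-Nd4l: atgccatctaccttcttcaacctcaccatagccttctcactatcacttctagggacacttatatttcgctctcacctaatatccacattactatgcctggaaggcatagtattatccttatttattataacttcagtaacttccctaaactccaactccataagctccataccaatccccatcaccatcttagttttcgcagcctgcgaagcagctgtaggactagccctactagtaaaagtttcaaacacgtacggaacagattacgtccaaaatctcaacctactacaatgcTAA
The capitals are the whole difference. Cut into words of 31 bases, Gm10222 holds 0 of 264 words that its counterpart lacks and mt-Nd4l holds 3 of 267 words of its own. A read from either gene fits the other unless it reaches those last bases of mt-Nd4l.

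Gm10222 belongs to a cluster of 7 copies at chr1:24611535-24616197, in which Gm28439 matches mt-Nd4, Gm28438 mt-Nd3, Gm28437 mt-Co3, Gm10925 mt-Atp6, Gm28661 mt-Co2 and Gm29216 the end of mt-Co1. Identity over the aligned bases was 100% for 6 of the copies and 99.8% for Gm29216. Of its 31-base words, mt-Co2 shared all but 3 with the copies, mt-Atp6 all but 3, mt-Nd3 all but 6 and mt-Co3 all but 1. By contrast, mt-Nd1, mt-Nd2, mt-Nd5, mt-Nd6, mt-Cytb, mt-Rnr1 and mt-Rnr2 shared none, mt-Atp8 kept 161 of 174 of its own, mt-Co1 1066 of 1515 and mt-Nd4 502 of 1348. Levels of mt-Co2, mt-Co3, mt-Atp6, mt-Nd3, mt-Nd4l and Gm10222 are therefore uncertain as deposited, since reads of one origin could be split between the rows.

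The protein-coding transcripts were among the most abundant RNAs of these cells. The transcript of mt-Co1, the catalytic subunit of cytochrome c oxidase (chrM:5328-6872), had the highest mean of all genes at 18728 TPM, and mt-Atp8, a small ATP synthase subunit (chrM:7766-7969), was second at 18180 TPM. As deposited, they were followed among the members by mt-Co2 (8649 TPM), mt-Cytb (5607 TPM) and mt-Nd1 (5462 TPM), at ranks 8, 13 and 15. This order changes when the TPM of each copy is added to its counterpart. In si-CTL cells without rescue at day 0, such log2 means were 14.00 for mt-Co2, 13.91 for mt-Atp6 and 13.40 for mt-Co3. They lay above 12.66 for mt-Nd1 and 12.52 for mt-Cytb. Of the 20 most abundant genes, 5 were mt- genes and 3 were nuclear copies, Gm10925, Gm28437 and Gm28661. The lowest mean of a protein gene was 95.5 TPM for mt-Nd6, the complex I subunit read from the other strand (chrM:13552-14070), at rank 1435. Gm10222 had a mean of 929 TPM.

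The RNAs without a protein product stood lower. Both rRNAs were below 12 of the 13 mRNAs, with means of 402 TPM for mt-Rnr1, the RNA of the small mitochondrial subunit, and 230 TPM for mt-Rnr2, that of the large one. The records name both a poly-A kit and a total RNA kit, so how fully rRNA was recovered is unknown. These values therefore describe the libraries and do not give the ratio of rRNA to mRNA in the cells. All 22 tRNA genes were at 0 in all 24 libraries. They are 59 to 75 bp long, and of the 960 genes of the table that span at most 75 bp only 2 were above 0 in any library, so the zeros hold for short genes of the table in general. Of the 38 members, 16 passed the filter and were tested, namely the 15 mRNAs and rRNAs and Gm10222. The plot of member levels shows the even height of most mRNAs across libraries beside the scattered values of mt-Co2, mt-Co3, mt-Atp6, mt-Nd3 and Gm10222. Scatter did not simply follow the presence of a copy. Both mt-Co1 and mt-Nd4 have one and were even, while mt-Nd6 has none and varied more.

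**Figure D1:**
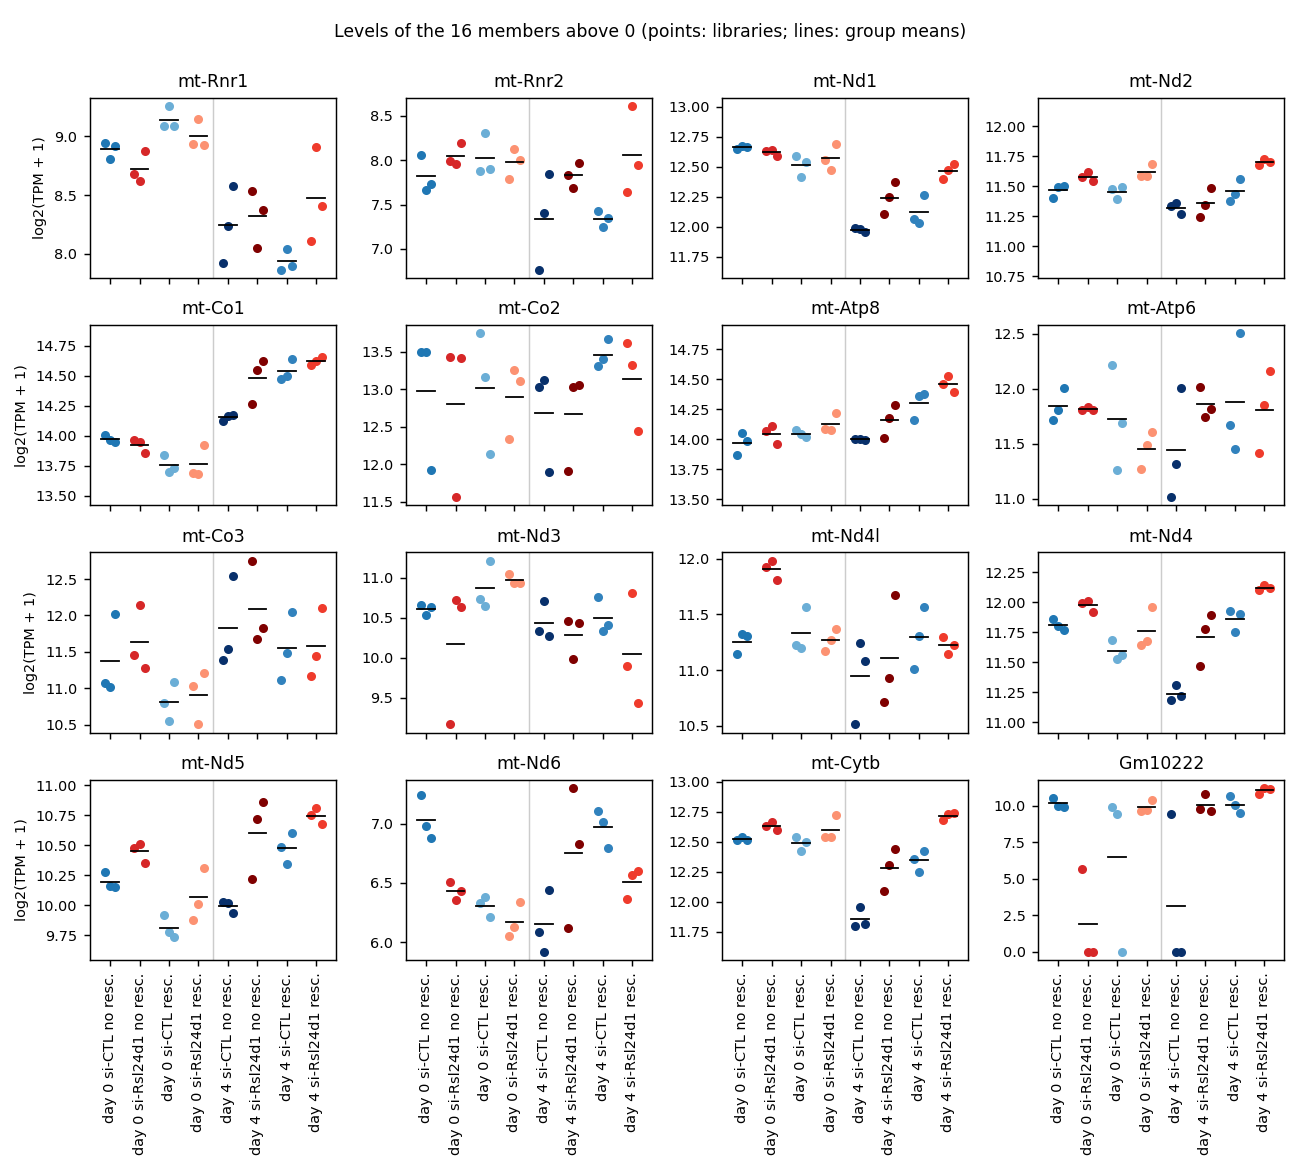
Level of each of the 16 expressed members, 1 panel per gene with its own vertical range, log2(TPM + 1) on the vertical axis and the 8 groups on the horizontal axis (points are libraries, lines are group means, blue is si-CTL and red si-Rsl24d1). mt-Co1 and mt-Atp8 stand at the top, mt-Nd6 and the rRNAs at the bottom, and Gm10222 runs from 0 to 11.23.

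The deposited split between a gene and its copy varied widely from library to library. Of the length-weighted TPM of mt-Co2 and Gm28661 together, mt-Co2 held between 18.0% and 79.8%. The share was 26.5% to 96.9% for mt-Nd3, 48.6% to 100% for mt-Nd4l, 11.7% to 39.2% for mt-Co3 and 12.9% to 28.6% for mt-Atp6. Only mt-Co1, whose copy covers part of the gene, kept a narrow range of 93.1% to 97.7%, and Gm28439 was at 0 in all libraries so that mt-Nd4 held all of its sum.

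Adding each copy to its counterpart, weighted by transcript length, removed most of the spread of mt-Co2, mt-Co3, mt-Atp6 and mt-Nd3. For mt-Nd4l it removed a smaller part. The SD within groups of log2 values fell from 0.725 to 0.0603 for mt-Co2, from 0.490 to 0.0538 for mt-Co3 and from 0.354 to 0.0725 for mt-Atp6. It fell from 0.437 to 0.108 for mt-Nd3 and from 0.263 to 0.155 for mt-Nd4l. The 5 mRNAs whose words are not shared had SDs of 0.0671 for mt-Nd2, 0.0866 for mt-Nd1, 0.0903 for mt-Cytb, 0.160 for mt-Nd5 and 0.259 for mt-Nd6, so the last varied about as much as mt-Nd4l as deposited. Gm10222 alone had 3.02. In si-CTL cells without rescue at day 0, for instance, mt-Co2 read 13.49, 13.50 and 11.92 as deposited, and 13.91, 14.04 and 14.05 with its copy added. The third library was low in the first set of values and lay beside the second library in the other. Combined values were chosen after these values had been seen. Where a change is given below with copies added, the change as deposited follows it.

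**Figure D2:**
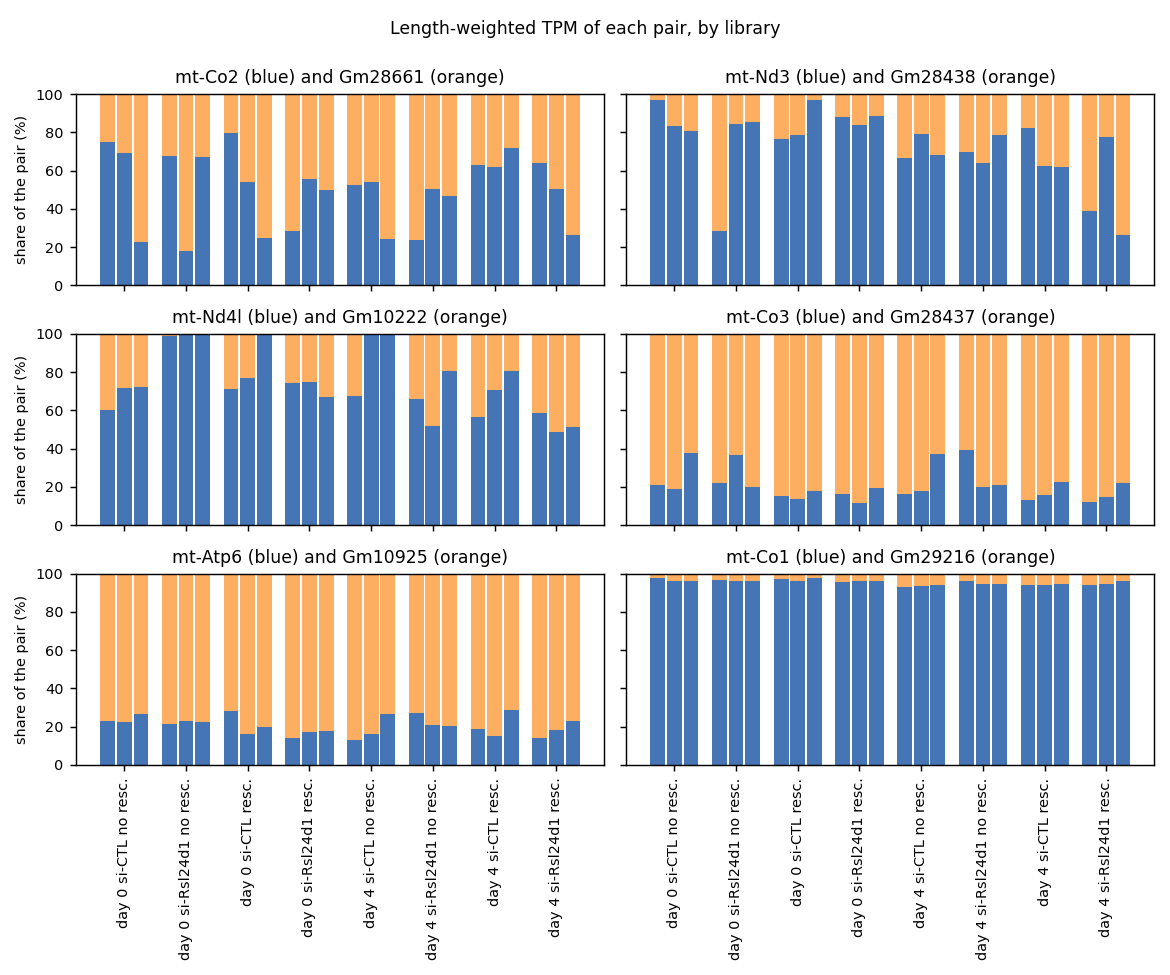
Percent of the length-weighted TPM of a gene and its nuclear copy that the table gives to the mitochondrial gene (blue) and to the copy (orange), 1 bar per library, grouped by condition on the horizontal axis and with 1 panel per pair. mt-Co2 ranges from 18.0% to 79.8% and mt-Co1 from 93.1% to 97.7%.

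Both bicistronic mRNAs gave a check that used none of the groups, since both reading frames of such an mRNA lie on a single molecule. As deposited, mt-Nd4l stood 0.47 below mt-Nd4 on the log2 scale on average, a mean difference of -0.47 with an SD of 0.309 over 24 libraries and a range of -1.01 to -0.00. With Gm10222 added to mt-Nd4l the mean difference was -0.02 with an SD of 0.0676. For the other pair the difference of mt-Atp8 from mt-Atp6 was 2.41 with an SD of 0.353 as deposited, and 0.09 with an SD of 0.0679 once Gm10925 was added to mt-Atp6. In both pairs the frames came to nearly equal levels when the rows with the shared sequence were summed.

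**Figure D3:**
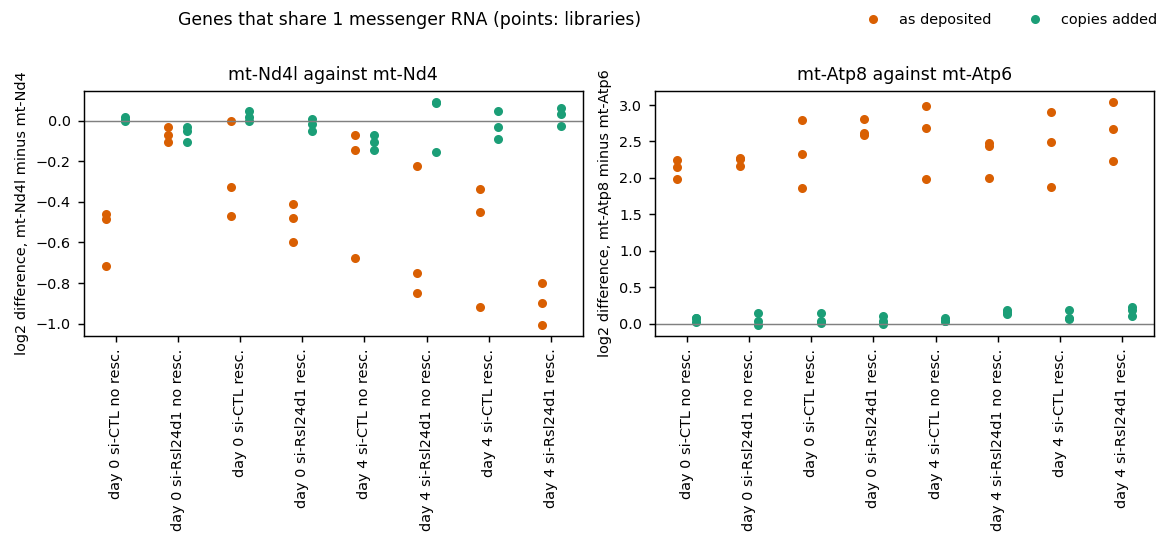
Difference in log2 level between the paired reading frames (mt-Nd4l minus mt-Nd4, and mt-Atp8 minus mt-Atp6) on the vertical axis, by group on the horizontal axis, as deposited (orange) and with the nuclear copies added (green); points are libraries. The values with copies added lie between -0.15 and 0.22.

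The targeted gene was checked before the comparisons. At day 0 Rsl24d1 was at 141 ± 6.08 TPM (SD, n = 3) in si-CTL cells and 35.7 ± 2.72 TPM in si-Rsl24d1 cells, both without rescue. At day 4 it was at 97.9 ± 2.74 TPM and 95.1 ± 5.33 TPM, so no lower level was visible in the si-Rsl24d1 libraries then, and what is called the siRNA effect at day 4 is a comparison of labelled groups. With rescue, Rsl24d1 was at 151 ± 5.87 TPM in si-CTL cells and 107 ± 13.1 TPM in si-Rsl24d1 cells at day 0. At day 4 with rescue it was at 118 ± 6.90 TPM and 131 ± 3.56 TPM, again no lower with si-Rsl24d1. In si-CTL cells at day 0 the level with rescue was thus close to that without it. The summed RA target genes were at 6.18 to 8.52 TPM at day 0 and 20.6 to 28.9 TPM at day 4, with no overlap between days. Among ESC markers Pou5f1 was at 892 to 1123 TPM at day 0 and 450 to 547 TPM at day 4, while Nanog was higher at day 4, at 287 to 359 TPM against 134 to 188 TPM. The ranges of Zfp42, Esrrb and Klf4 overlapped between day 0 and day 4. Zfp42 was at 317 to 645 and 449 to 549 TPM, and Esrrb at 68.9 to 166 and 88.6 to 113 TPM. Klf4 was at 18.6 to 28.2 and 13.6 to 22 TPM. Fibroblast markers summed to 14.5 to 34.3 TPM at day 0 and 50.1 to 168 TPM at day 4. Of the 3, Col1a1 and Postn were higher at day 4, while Thy1 was lower, at 1.22 to 2.51 TPM against 4.40 to 6.78 TPM. The part of such cells in the day comparisons was not tested. In bulk RNA, fewer cells of a type and less RNA per cell cannot be told apart.

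At day 0 few mitochondrial transcripts passed the test between the siRNAs. Without rescue it was 1 of the 16 members, Gm10222, against 30.4% of all genes tested. Without overlap between the groups, mt-Nd2, mt-Nd4, mt-Nd4l, mt-Nd5 and mt-Cytb lay higher in si-Rsl24d1 cells and mt-Nd1, mt-Nd6 and Gm10222 lower. How often the groups were apart among all genes was not counted, so these separations are description only. Gm10222 read 10.57, 9.99 and 9.93 in si-CTL cells and 5.69, 0 and 0 in si-Rsl24d1 cells. The drop of -8.27 (SE 2.26, adjusted p = 0.00607) was met by the opposite movement of mt-Nd4l, at 11.14, 11.32 and 11.31 against 11.93, 11.98 and 11.81. The change in mt-Nd4l was 0.65 (SE 0.198, adjusted p = 0.0121) as deposited. Summed with Gm10222 it was 0.10 (SE 0.118, adjusted p = 0.551), so the lower value of Gm10222 is not seen in the total of the shared sequence.

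With the copies added, mt-Co3, the third core subunit of cytochrome c oxidase, rose by 0.21 (SE 0.0458, adjusted p = 0.00101) in si-Rsl24d1 cells at day 0, against 0.26 (adjusted p = 0.616) as deposited. Its summed libraries read 13.33, 13.44 and 13.44 in si-CTL cells and 13.62, 13.60 and 13.62 in si-Rsl24d1 cells, with no overlap. The level of mt-Nd6 was 7.24, 6.98 and 6.87 in si-CTL cells and 6.50, 6.35 and 6.43 in si-Rsl24d1 cells. These groups did not overlap either, and the difference of -0.60 (SE 0.195) had an adjusted p of 0.0180, which median of ratios scaling brought to 0.00626. With rescue, 0 of 16 members passed the limma test between the siRNAs, against 13.7% of all genes, and 2 had an unadjusted p under 0.05.

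At day 4 without rescue, 5 of 16 members were higher in the si-Rsl24d1 group and 0 were lower, while 30.9% of all genes passed in either direction. The number of members that passed was near that share. The 5 were mt-Nd5 (0.60, SE 0.121, adjusted p = 0.000626), mt-Nd4 (0.48, SE 0.0885, adjusted p = 0.000340), mt-Cytb (0.42, SE 0.0710, adjusted p = 0.000138), mt-Co1 (0.32, SE 0.0760, adjusted p = 0.00212) and mt-Nd1 (0.26, SE 0.0684, adjusted p = 0.00427). The proteins of mt-Nd1, mt-Nd4 and mt-Nd5 lie in the membrane arm of complex I, and that of mt-Cytb is the only mitochondrially encoded subunit of complex III. For mt-Nd5 the libraries read 10.03, 10.02 and 9.94 in si-CTL cells and 10.22, 10.72 and 10.86 in si-Rsl24d1 cells. The first si-Rsl24d1 library lay nearest to si-CTL for all 5 genes. None of the 5 overlapped between groups, which is description only, since how often this held among all genes was not counted. With its copy added mt-Nd4l rose too, by 0.59 (SE 0.118, adjusted p = 0.000606), against 0.16 (adjusted p = 0.532) as deposited.

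The size of these differences depended on how the libraries were scaled. The median change of all genes in this comparison was 0.13, and that of the members was 0.29. Under median of ratios scaling mt-Cytb, mt-Nd4 and mt-Nd5 still passed, while mt-Co1 came to 0.15 (adjusted p = 0.106) and mt-Nd1 to 0.10 (adjusted p = 0.276). When only the libraries of the compared groups were fitted, 0 of the members passed.

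With rescue at day 4, 3 of 16 members were higher in si-Rsl24d1 cells, against 5.87% of all genes. They were mt-Cytb (0.37, SE 0.0710, adjusted p = 0.00162), mt-Nd1 (0.34, SE 0.0684, adjusted p = 0.00226) and mt-Nd2 (0.24, SE 0.0542, adjusted p = 0.00518), the latter encoding another membrane subunit of complex I. The libraries of mt-Cytb read 12.36, 12.25 and 12.43 in si-CTL cells and 12.68, 12.73 and 12.74 in si-Rsl24d1 cells, without overlap. With copies added mt-Co2, which encodes the subunit that accepts electrons from cytochrome c, rose by 0.24 (SE 0.0503, adjusted p = 0.00361). As deposited its difference had the opposite sign, -0.33 (adjusted p = 0.762). Without the second si-CTL library with rescue, 0 members passed, and 1 passed without the first si-CTL library or without the second or the third si-Rsl24d1 library.

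From day 0 to day 4 the mitochondrial transcripts did not move together, with mt-Nd1 lower in 3 of the 4 comparisons and mt-Co1 higher in 3 of the 4. In si-CTL cells without rescue, 6 of 16 members were lower at day 4 and 0 were higher, against 60.9% of all genes, and under median of ratios scaling 4 were lower and 1, mt-Co1, was higher (0.31, adjusted p = 0.00100). The median change was -0.35 for the members and -0.10 for all genes. Here mt-Nd1 fell by 0.68 (SE 0.0684, adjusted p = 3.11e-08), mt-Cytb by 0.67 (SE 0.0710, adjusted p = 7.58e-08) and mt-Nd4 by 0.57 (SE 0.0885, adjusted p = 1.03e-05). The libraries of mt-Nd1 read 12.65, 12.67 and 12.66 at day 0 and 11.99, 11.98 and 11.95 at day 4, far apart for their spread. Also lower were mt-Nd6 at -0.88 (adjusted p = 0.000481), mt-Rnr1 at -0.64 (adjusted p = 0.00187) and Gm10222, which read 9.47, 0 and 0 at day 4. With copies added, mt-Nd4l fell by 0.68 (SE 0.118, adjusted p = 3.62e-05) while mt-Co3 rose by 0.60 (SE 0.0458, adjusted p = 5.9e-10). As deposited, mt-Nd4l was at -0.31 (adjusted p = 0.167) and mt-Co3 at 0.45 (adjusted p = 0.285).

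The rise of mt-Co3 with its copy added was seen in all 4 day comparisons. It was 0.45 (SE 0.0458, adjusted p = 3.66e-08) in si-Rsl24d1 cells without rescue, 0.62 (adjusted p = 3.53e-10) in si-CTL cells with rescue and 0.65 (adjusted p = 1.77e-10) in si-Rsl24d1 cells with rescue. At day 0 the 12 libraries lay between 13.33 and 13.63 and at day 4 between 13.97 and 14.30. As deposited, mt-Co3 passed in 0 of these comparisons, with changes of 0.45 to 0.74 in the same direction.

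In si-Rsl24d1 cells without rescue, 2 of 16 members were higher at day 4 and 4 were lower, against 55.8% of all genes, with medians of -0.05 for the members and 0.02 for all genes. The transcript of mt-Co1 rose by 0.55 (SE 0.0760, adjusted p = 2.52e-06), from 13.97, 13.95 and 13.86 to 14.27, 14.55 and 14.62. Those of mt-Nd1 (-0.38, SE 0.0684, adjusted p = 6.98e-05), mt-Cytb (-0.35, SE 0.0710, adjusted p = 0.000207) and mt-Nd2 (-0.22, SE 0.0542, adjusted p = 0.00146) were lower. The other calls were Gm10222 at 8.18 (adjusted p = 0.00364) and mt-Nd4l at -0.80 (adjusted p = 0.00143), which again moved in opposite directions. Their sum changed by -0.19 (SE 0.118, adjusted p = 0.165).

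With rescue, the counts in si-CTL cells hung on the scaling. There 4 members were higher and 2 lower by day 4, against 59.2% of all genes, and under median of ratios scaling 2 were higher and 4 lower. The median change was 0.21 for the members and 0.12 for all genes. The higher ones were mt-Co1 (0.78, SE 0.0760, adjusted p = 2.21e-08), mt-Nd5 (0.67, SE 0.121, adjusted p = 6.88e-05), mt-Nd6 (0.66, SE 0.195, adjusted p = 0.00531) and mt-Atp8 (0.25, SE 0.0701, adjusted p = 0.00334). The lower ones were mt-Rnr1 (-1.21, SE 0.166, adjusted p = 2.42e-06) and mt-Nd1 (-0.40, SE 0.0684, adjusted p = 3.89e-05). In si-Rsl24d1 cells with rescue 4 were higher and 1 was lower, against 58.1% of all genes, with medians of 0.28 for the members and 0.07 for all genes. There mt-Co1 rose by 0.86 (adjusted p = 5.52e-09), mt-Nd5 by 0.68 (adjusted p = 5.53e-05), mt-Nd4 by 0.36 (adjusted p = 0.00141) and mt-Atp8 by 0.33 (adjusted p = 0.000319), and mt-Rnr1 was at -0.53 (adjusted p = 0.00871). Counted over the 15 expressed mitochondrial genes with copies added, 8 were higher and 1 was lower in this last comparison. Among the 8 was mt-Nd4l, at 0.40 (adjusted p = 0.00554) with its copy and -0.04 (adjusted p = 0.858) as deposited.

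The ratio of mt-Co1 to mt-Cytb gave the shift between days without any scaling of the libraries. The mean difference of their log2 values was 1.17 to 1.45 in the 4 groups at day 0 and 1.91 to 2.30 in the 4 groups at day 4, with an SD within groups of 0.0459. The libraries ranged from 1.15 to 2.36. Within each day the mt-Co1 excess was lowest in si-Rsl24d1 cells with rescue, with means of 1.17 and 1.91. The plot of changes sets the day comparisons beside those of the siRNA and the rescue.

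**Figure D4:**
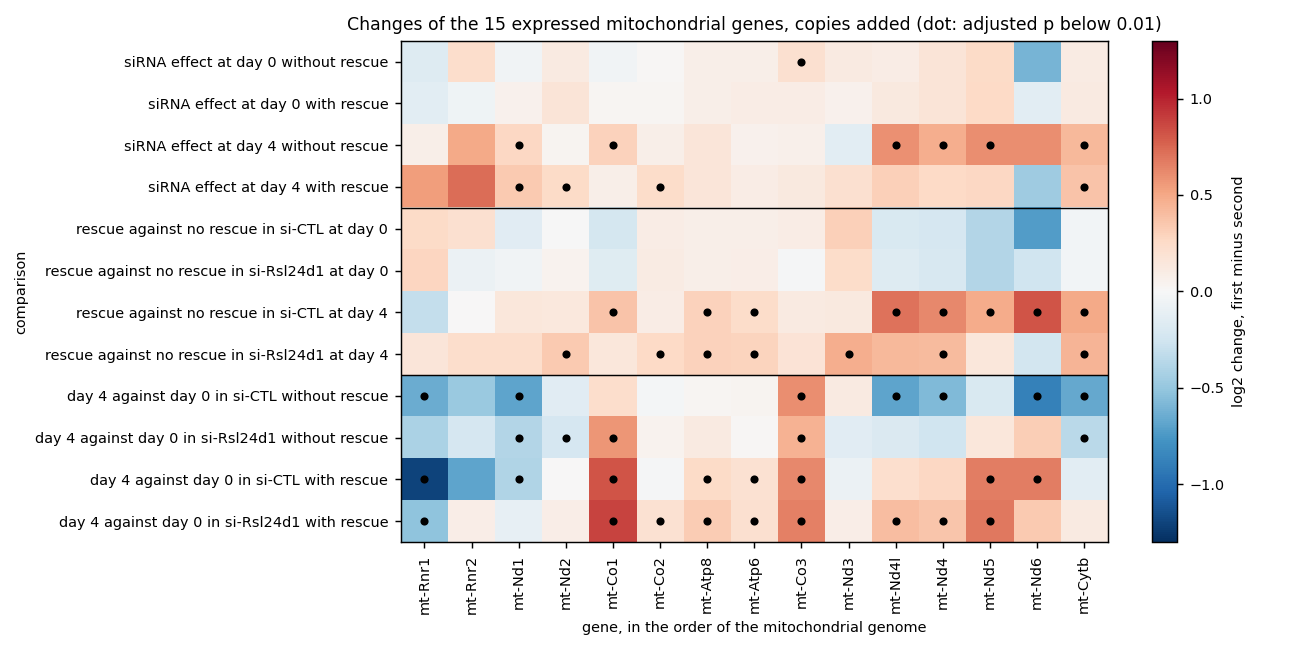
Change on the log2(TPM + 1) scale, by colour, of the 15 expressed mitochondrial genes with copies added (horizontal axis, in genome order) in the comparisons of siRNA, rescue and day (vertical axis), with a dot where the adjusted p was under 0.01. mt-Nd1 lies below 0 in all 4 day comparisons, and mt-Co1 lies above 0 in all 4.

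At day 4 several mitochondrial mRNAs were higher with rescue than without it. In si-CTL cells 6 of 16 members were higher with rescue, against 10.2% of all genes, with medians of 0.37 for the members and 0.09 for all genes. They were mt-Nd6 (0.82, SE 0.195, adjusted p = 0.00647), mt-Nd4 (0.62, SE 0.0885, adjusted p = 0.000975), mt-Cytb (0.49, SE 0.0710, adjusted p = 0.00109), mt-Nd5 (0.48, SE 0.121, adjusted p = 0.00847), mt-Co1 (0.38, SE 0.0760, adjusted p = 0.00267) and mt-Atp8 (0.30, SE 0.0701, adjusted p = 0.00587). For mt-Nd4 the libraries read 11.19, 11.31 and 11.22 without rescue and 11.93, 11.75 and 11.90 with it, so the groups lay well apart. With copies added, mt-Nd4l rose by 0.71 (SE 0.118, adjusted p = 0.00146) and mt-Atp6, the proton channel subunit of ATP synthase, by 0.24 (SE 0.0586, adjusted p = 0.00726). As deposited these were 0.35 (adjusted p = 0.199) and 0.43 (adjusted p = 0.244). Under median of ratios scaling mt-Atp8, mt-Co1 and mt-Nd5 kept their direction and had adjusted p values of 0.163, 0.0230 and 0.0144.

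In si-Rsl24d1 cells at day 4, 4 members were higher with rescue, against 5.17% of all genes, with medians of 0.19 for the members and -0.07 for all genes. They were mt-Cytb (0.44, SE 0.0710, adjusted p = 0.000531), mt-Nd4 (0.41, SE 0.0885, adjusted p = 0.00514), mt-Nd2 (0.34, SE 0.0542, adjusted p = 0.000416) and mt-Atp8 (0.30, SE 0.0701, adjusted p = 0.00848). The libraries of mt-Nd2 read 11.25, 11.35 and 11.48 without rescue and 11.68, 11.72 and 11.70 with it. With copies added, mt-Nd3 (0.47, adjusted p = 0.00101), mt-Atp6 (0.29, adjusted p = 0.00305) and mt-Co2 (0.26, adjusted p = 0.00216) were higher as well. As deposited, mt-Nd3 (-0.24, adjusted p = 0.696) and mt-Atp6 (-0.05, adjusted p = 0.934) had the opposite sign, and mt-Co2 was at 0.47 (adjusted p = 0.648). When only the libraries of the compared groups were fitted, 0 members passed.

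At day 0 the comparison of rescue with no rescue gave no call. In the limma fit 0 of 16 members passed in si-CTL cells, against 0.0122% of all genes, and 5 had an unadjusted p under 0.05. In si-Rsl24d1 cells 0 passed, against 15.3% of all genes, and 6 had an unadjusted p under 0.05. The levels of mt-Nd6 in si-CTL cells were 7.24, 6.98 and 6.87 without rescue and 6.33, 6.38 and 6.21 with it, a difference of -0.72 (SE 0.195, adjusted p = 0.0250).

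Whether the effects differed between days was tested by interaction terms. The siRNA effect without rescue differed between days for 3 members, against 30.9% of all genes, namely Gm10222, mt-Nd6 (1.20, SE 0.275, adjusted p = 0.00168) and mt-Co1 (0.37, SE 0.107, adjusted p = 0.00856). For mt-Nd6 the difference between siRNAs was -0.60 at day 0 and 0.60 at day 4, where the libraries read 6.09, 5.92 and 6.44 in si-CTL cells and 6.12, 7.30 and 6.83 in si-Rsl24d1 cells. The latter groups overlapped. With the copies added, mt-Nd6 alone of the 15 genes passed. Under median of ratios scaling the term for mt-Co1 was 0.22 (adjusted p = 0.110).

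The rescue effect in si-CTL cells differed between days for 5 members, all with a higher term at day 4, against 29.6% of all genes. The number of members that passed was near that share, so the members did not stand out by count. This comparison was added after the rescue results had been seen. The terms were 1.54 for mt-Nd6 (SE 0.275, adjusted p = 0.000716), 0.87 for mt-Nd5 (SE 0.171, adjusted p = 0.000994), 0.84 for mt-Nd4 (SE 0.125, adjusted p = 0.000587), 0.60 for mt-Co1 (SE 0.107, adjusted p = 0.000726) and 0.53 for mt-Cytb (adjusted p = 0.000890). The median term of all genes was 0.21, and under median of ratios scaling mt-Co1 (0.31, adjusted p = 0.0297) and mt-Cytb (0.24, adjusted p = 0.0575) no longer passed. Between the siRNA and the rescue at day 0, 0 members had an interaction that passed in limma, against 2.09% of all genes, and 2 had an unadjusted p under 0.05.

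Within groups, the rRNAs moved with some RNAs that carry no poly-A tail. The lowest levels of mt-Rnr1 were in si-CTL cells with rescue at day 4, at 7.86, 8.04 and 7.90, and the highest in si-CTL cells with rescue at day 0, at 9.08, 9.26 and 9.09. In the same libraries Rn7s1, a signal recognition particle RNA, was at 22.0, 49.8 and 5.93 TPM at day 4 and at 207, 531 and 236 TPM at day 0. Within all 8 groups the library with the most Rn7s1 had the most mt-Rnr1, and so did the library with the most Rn7sk, an RNA that regulates transcription elongation. For mt-Rnr2 this held in 6 of the 8 groups. How often such orders occur among all genes was not counted, so they are description only, here and below. The summed replication-dependent histone genes, whose RNAs also lack the tail, followed mt-Rnr1 in some groups only. In si-CTL cells without rescue at day 4 they rose with it, at 171, 180 and 199 TPM. In si-CTL cells with rescue at day 4 they were at 156, 153 and 154 TPM, lowest where mt-Rnr1 was highest.

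An example is the si-CTL group without rescue at day 4, in which mt-Rnr1 read 7.92, 8.24 and 8.58 and mt-Rnr2 read 6.76, 7.41 and 7.84. Rn7s1 was at 30.1, 198 and 429 TPM and Rn7sk at 22.8, 88.2 and 142 TPM in those libraries, in the same order. The mRNA mt-Nd1 was lowest where Rn7sk was highest in 7 of the 8 groups, the most of any mRNA. With copies added, the other mRNAs ranged from 1 group for mt-Nd6 to 6 groups for mt-Nd2 and mt-Nd3. Between the days in si-CTL cells without rescue the directions were opposite, with mt-Rnr1 at a mean of 474 TPM at day 0 and 308 TPM at day 4, Rn7s1 at 60.9 and 219 TPM and Rn7sk at 16.7 and 84.3 TPM. The part of this movement in the changes of mt-Rnr1 was not tested. The change of mt-Rnr1 in si-CTL cells without rescue had an adjusted p of 0.0163 under median of ratios scaling.

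The group means of mt-Nd6 ran against those of Rn7sk. Its highest levels were in si-CTL cells without rescue at day 0 and si-CTL cells with rescue at day 4, where it read 7.10, 7.01 and 6.80. Those 2 si-CTL groups had the lowest Rn7sk means. Their libraries were at 25.1, 12.8 and 12.3 TPM and at 21.1, 26.1 and 11.8 TPM. The other 6 groups had means of 53.2 TPM or more, but single libraries overlapped. Such libraries were at 21.8 TPM in si-Rsl24d1 cells and 22.8 TPM in si-CTL cells, both without rescue at day 4. Whether this bears on the changes of mt-Nd6 was not tested.

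Summed over the 13 protein genes, the share of all TPM was highest with rescue at day 4. With rescue at that day it was 8.97% ± 0.237 (SD, n = 3) for si-Rsl24d1 and 8.42% ± 0.791 for si-CTL, and without rescue 7.77% ± 0.784 and 6.57% ± 0.191. At day 0 the means of the 4 groups lay between 6.82% and 7.41%, with SDs of 0.219 to 0.646, and neighbours in that order lay within their spread. With the 7 copies added the share was 14.1% ± 0.176 in rescued si-Rsl24d1 cells and 10.5% ± 0.175 in unrescued si-CTL cells at day 4, and 10.1% to 10.7% at day 0. The rRNAs took 0.0349% to 0.0927% of the TPM, and Gm10222 0% to 0.241%. Since TPM sum to the same total in each library, a share of this size also moves the values of the other genes, which is why the second scaling is given.

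**Figure D5:**
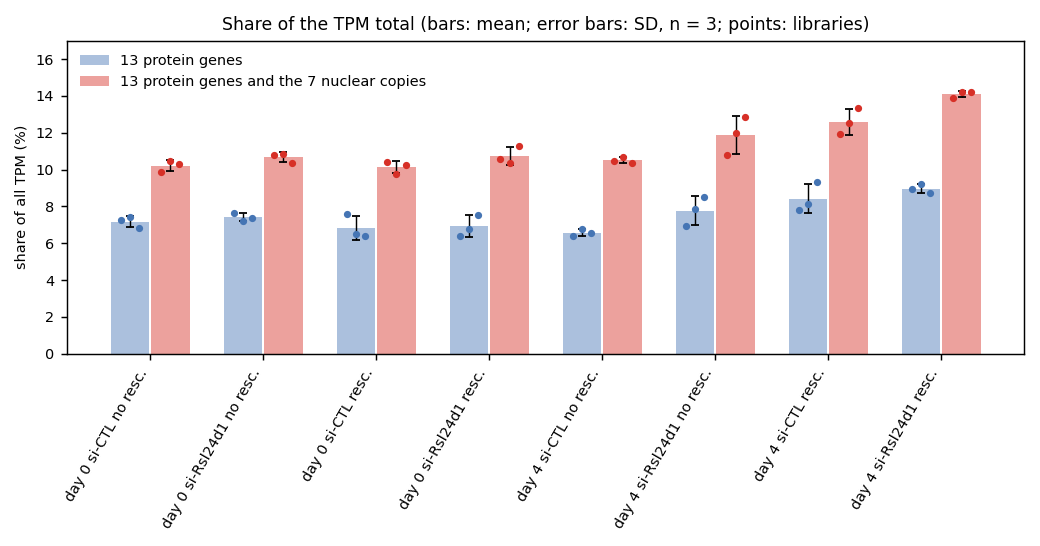
Percent of all TPM (vertical axis) taken by the 13 mitochondrial protein genes in each of the 8 groups, as deposited (blue) and with the 7 nuclear copies added (red; points are libraries, bars are means, error bars are SDs). The rescued si-Rsl24d1 group at day 4 is highest in both, with means of 8.97% and 14.1%.

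Nuclear genes that serve mitochondrial RNA were read beside the members from day 0 to day 4. Of 20 tested genes for mitochondrial RNA processing and stability, 13 fell and 2 rose in si-CTL cells without rescue, where 60.9% of all genes passed. The counts were 7 and 3 in si-Rsl24d1 cells without rescue, against 55.8%, then 9 and 4 in si-CTL cells with rescue, against 59.2%, and 6 and 5 in si-Rsl24d1 cells with rescue, against 58.1%. The number that passed in these last 3 comparisons was near the share of all genes. Under median of ratios scaling 12 fell and 4 rose, 10 fell and 5 rose, 13 fell and 3 rose, and 11 fell and 3 rose, in the same order. Elac2, the nuclease that cuts the 3′ ends of tRNAs, fell by 1.29 (SE 0.0507, adjusted p = 2.96e-14) in the first of these and by 1.24, 0.98 and 1.15 in the others. Tbrg4, an RNA-binding FASTK family protein of mitochondria, fell by 1.09 (adjusted p = 9.33e-14) in si-CTL cells without rescue, and Fastkd3 of the same family by 0.94 (adjusted p = 1.43e-06). Rexo2, which degrades short mitochondrial RNA, fell by 0.92 (adjusted p = 2.53e-14) in si-Rsl24d1 cells without rescue.

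Of 11 transcription genes, 4 fell and 2 rose in si-CTL cells without rescue, Polrmt falling by 0.89 (SE 0.0949, adjusted p = 7.67e-08). Of 7 tested regulators of mitochondrial biogenesis 6 fell in the same comparison, among them Pprc1, a coactivator, by 1.00 (SE 0.0895, adjusted p = 6.8e-09), and under median of ratios scaling 6 fell and 1 rose. Of 12 genes for mtDNA replication 5 fell and 1 rose there, against 2 that fell and 3 that rose under median of ratios scaling. The 1 that rose was Primpol, a primase and polymerase, whose rise of 1.17 (SE 0.0712, adjusted p = 2.11e-11) was matched by changes of 1.39, 1.14 and 1.37 in the other day comparisons. These counts stand against the 60.9% of all genes that passed in si-CTL cells without rescue.

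Of the nuclear subunits of the respiratory complexes and ATP synthase 84 were tested, and in the day comparisons no larger a part of them passed than of all genes without rescue, and a slightly larger one with rescue. In si-CTL cells without rescue 33 rose and 14 fell by day 4, against 60.9% of all genes, with a median of 0.10. With rescue 16 rose and 37 fell in si-CTL cells, against 59.2%, and 13 rose and 40 fell in si-Rsl24d1 cells, against 58.1%, with medians of -0.14 and -0.17. In si-Rsl24d1 cells without rescue the counts were 19 and 19, against 55.8%. Median of ratios scaling gave 5 that rose and 50 that fell in rescued si-CTL cells, and 7 and 42 in rescued si-Rsl24d1 cells.

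In the siRNA comparison at day 4 without rescue 3 subunits were higher and 32 lower, against 30.9% of all genes, and 0 were higher and 52 lower under median of ratios scaling. Their median was -0.16, beside 0.29 for the mitochondrial members. With rescue at day 4, 17 subunits were lower and 0 higher in si-CTL cells, against 10.2% of all genes. In si-Rsl24d1 cells 5 were lower and 0 higher, against 5.17%.

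Cox6b2, a testis-type subunit of cytochrome c oxidase, rose by 1.81 (SE 0.0585, adjusted p = 1.69e-15) by day 4 in si-CTL cells without rescue and was 1.10 higher with si-Rsl24d1 at day 0 (adjusted p = 1.12e-11). Ndufa4l2, a hypoxia-responsive relative of a cytochrome c oxidase subunit, fell by 2.42 (SE 0.141, adjusted p = 1.03e-11) by day 4 in si-Rsl24d1 cells with rescue and by 1.17 (adjusted p = 4.07e-07) in si-CTL cells without it. Atp5l, a membrane subunit of ATP synthase, fell by 0.99 (adjusted p = 8.59e-11) in si-CTL cells with rescue. Cox7a1, a muscle-type subunit, rose by 1.18 (SE 0.123, adjusted p = 5.57e-08) in si-Rsl24d1 cells without rescue.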

How the data were processed

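RNA-seq was measured in 24 libraries, 3 in each of 8 groups read from the sample titles, and the labels call the triplicates independent. Reads were quantified by the authors with Salmon and tximport, and they deposited 1 table of log2(TPM + 1) values, in which TPM sum to 1000000 in each library. Such values keep no read depth, so depth is unknown, no counting interval can be given, and precision rests on 3 libraries per group. The submitters' processing notes name Salmon 1.4.0, STAR 2.7.8a and GRCh38, a human build, and a poly-A kit, whereas the study's methods give total RNA libraries and GRCm38. This was not settled, and it bears on RNAs without a poly-A tail.

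Genes with a mean of at least 0.5 were fitted with limma 3.58.1 in R 4.3.3 (8 group means, intensity trend, two-sided, Benjamini-Hochberg adjustment per comparison). Changes are on the log2(TPM + 1) scale and understate those of low genes. Group means were compared between siRNAs, days and rescue states, with interaction terms. All members were described. Of each nuclear list, at most 3 genes in each direction past the test and a 1.8-fold change were named, those with the largest changes. Members and lists were chosen with earlier results of these data known.

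Transcript sequences and coordinates came from gencode vM21 (GRCm38), matched by symbol, and were aligned with Biopython 1.88. For combined values each copy's TPM was weighted by length and added to its counterpart. The fit was tested on simulated data. Alternatives were 0.1 or 2 added to the TPM, other filters, only the compared groups, a replicate block, median of ratios scaling, combined copies and leaving out each library. Replicate numbers did not pair the libraries. No table column was left unmapped.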

Additional observations from a re-analysis of the deposited data

Results flagged for a closer look

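Effects that differed between days by an interaction term were looked at again. The siRNA effect without rescue differed between day 4 and day 0 by 15.2 on the log2(TPM + 1) scale for Gm10222, by 1.20 for mt-Nd6 and by 0.37 for mt-Co1. The value for Gm10222 rests on libraries listed at 0, and for its sum with mt-Nd4l the term was 0.49 (SE 0.167, adjusted p = 0.0216). In si-CTL cells the rescue effect differed between days by 1.54 for mt-Nd6, 0.87 for mt-Nd5, 0.84 for mt-Nd4, 0.60 for mt-Co1 and 0.53 for mt-Cytb. In all of these the value at day 4 was the higher one. For the rescue effect, the number of members that passed was near the share of all genes that did. Groups of 3 libraries were too small to look for single libraries that stand apart.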

How the results depend on the processing

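Of the values that passed as deposited, none changed its direction under the alternatives run. Of those that passed only with the copies added, 4 had the opposite sign as deposited, namely mt-Co2 in the siRNA comparison at day 4 with rescue, mt-Nd4l in the day comparison in rescued si-Rsl24d1 cells, and mt-Atp6 and mt-Nd3 for the rescue in si-Rsl24d1 cells at day 4. Over the single members that passed, 437 of 492 alternative values stayed on their side of the threshold and 55 no longer passed, and with libraries left out 259 of 348 stayed and 89 did not. Counts of members that passed moved as follows. For the siRNA effect at day 0 without rescue the count of 1 became 0 with 0.1 added to the TPM or without a filter, 2 with a minimum mean of 1.5, 2 under median of ratios scaling and 4 with only the compared groups. With only those groups the counts were also 0 for the siRNA effect at day 4 without rescue, 1 with rescue, 3 for the day comparison in si-Rsl24d1 cells without rescue, 1 and 0 for the rescue in si-Rsl24d1 cells at day 0 and day 4, and 1 for the siRNA by day interaction. Without a filter the rescue counts at day 4 were 3 for si-CTL and 2 for si-Rsl24d1. Median of ratios scaling gave 3 for the siRNA effect at day 4 without rescue, 3 for the rescue in si-CTL cells at day 4 and 3 for its interaction with day. Combining the copies, by length or as a plain sum, gave 9 for the day comparison in rescued si-Rsl24d1 cells, 7 for the rescue in si-Rsl24d1 cells at day 4 and 1 for the siRNA by day interaction.

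Same-numbered libraries did not deviate together, with a mean correlation of residuals of -0.0173 over 84 pairs against 0.00865 over 168 pairs with other numbers, so the numbers do not pair the libraries. The replicate block gave 2 members for the siRNA effect at day 0 without rescue and 2 for the rescue in si-Rsl24d1 cells at day 0, and moved no other count by over 1.5 times.

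Leaving out 1 library gave counts of 0 to 1 for the siRNA effect at day 0 without rescue (0 without any 1 of the si-CTL libraries or without si-Rsl24d1 library 2 or 3), 3 to 7 at day 4 without rescue (3 without si-Rsl24d1 library 2 or 3) and 0 to 3 at day 4 with rescue. The ranges were 3 to 6 for the day comparison in rescued si-Rsl24d1 cells (3 without day 0 library 1), 2 to 4 for the rescue in si-CTL cells at day 4 (2 without unrescued library 1 or 2 or rescued library 1 or 3), 0 to 1 for the rescue in si-Rsl24d1 cells at day 0 (1 without unrescued library 1 or rescued library 3) and 2 to 4 for it at day 4 (2 without any 1 library other than unrescued library 3). For the siRNA by day interaction the range was 2 to 7, with 7 without the first day 4 si-Rsl24d1 library. Where a group had fewer libraries, its spread was taken from the fit of all groups.

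With the 7 copies added, the share of the protein genes at day 0 was 10.2% (si-CTL) and 10.7% (si-Rsl24d1) without rescue and 10.1% and 10.7% with it, and at day 4 it was 10.5%, 11.9%, 12.6% and 14.1% in the same order. Relative to the TPM outside the members, the day 0 share without rescue was 7.75% for si-CTL and 8.01% for si-Rsl24d1, and the day 4 share was 7.04% in si-CTL cells without rescue, 9.22% with rescue and 9.88% in rescued si-Rsl24d1 cells. The rRNA share so taken was 0.0756% in si-CTL cells without rescue at day 0 and 0.0444% in si-CTL cells with rescue at day 4. Depth cannot be judged from TPM.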

Other observations

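The split of reads between mt-Co3 and its copy Gm28437 went to opposite sides from that between mt-Co2 and Gm28661 in 4 libraries, chosen after their values had been seen. In these libraries, 1 in each group without rescue, mt-Co3 held 36.7% to 39.2% of its pair, and mt-Co2 held 18.0% to 24.0%. In the other 20 libraries mt-Co3 held at most 22.6%, and in 3 of these, all with rescue, mt-Co2 was low as well, at 24.6%, 28.6% and 26.3%.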
